A study of Mus musculus with 4 samples.

Results

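The DNA replication and S phase genes were 46 of the 21367 mouse genes with a named feature on the arrays. They were listed by name for their role in copying DNA. All 46 had at least 1 probe, 51 probes in all. Vascular smooth muscle cells (VSMC) of C57BL/6J mice, at passages 12 to 16 and started from 5 aortas, were compared as wild type (WT) and as LAMP-2AKO cells, called L2AKO here. LAMP-2A is the splice form of a lysosomal membrane protein that takes up proteins in chaperone-mediated autophagy. How the deletion was made, and which passage went to which array, are not given in these sources. Cells of both genotypes were held for 24 h in DMEM with 5% lipoprotein-deficient serum. The control group of each genotype had this medium, and the LDL group had low-density lipoprotein at 150 µg/ml of LDL-cholesterol with added lipoprotein lipase from cattle (0.1 U/ml). Whether lipase was in the control medium too is not stated in the labels. RNA of each of the 4 groups was pooled in triplicate and put on 1 array, so no value has a replicate error and no test was run.

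Replication begins at origins that are licensed in G1, when the origin recognition complex, Cdc6 and Cdt1 load the ring-shaped MCM helicase onto DNA. Kinases then turn the loaded ring into an active helicase, polymerases copy each strand, and PCNA, the sliding clamp, holds them on the template. Many of these genes are transcribed at the entry into S phase by E2F factors, which the Rb pocket proteins hold back in resting cells. Vascular smooth muscle cells rest in the healthy artery wall and return to the cycle in culture and after injury.

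Levels are log2 signals relative to the array's own 75th percentile, so that 0 is the signal of that percentile, and differences are log2 levels of one array minus another. Paired levels of a genotype are given with the control array first and the LDL array after it, and 4 levels in a row give WT before L2AKO. A gene was measured in a comparison if all its arrays read the gene's probe well above background, and it counted as lower or higher at 1.5-fold or more. Spots were repeated on an array for 399 probes, of which 252 to 263 per array were above background. These gave an SD of 0.076 for a log2 difference, from the array with the highest median. It covers spread within an array only. The WT control, WT LDL and L2AKO control arrays lay on 1 slide and the L2AKO LDL array on another, so any comparison that uses the L2AKO LDL array also crosses slides, where the slide cannot be told apart from the group. Between 47.2% and 52.0% of probes were well above background, and no spot was saturated. Of 2 Lamp2 probes, 1 was level at 6.29 and 6.38 in WT and at 6.33 and 6.09 in L2AKO. The other was at 3.68 and 3.74 in WT and at 2.30 and 2.41 in L2AKO, and whether either lies in the deleted part is not known here. Of 10 smooth muscle markers, 6 were above background on all arrays, among them Acta2 and Tagln, while Myh11, Myocd, Lmod1 and Des were above background on none.

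The start regions of the replication genes are shown first, because shared E2F letters are the feature this family is known for. RefSeq start windows of GRCm38.p6, from 250 bases before to 50 after the start, matched 38 of the 46 genes. The E2F forms TTTCGCGC, TTTGGCGC and TTTCCCGC were searched on both strands, with overlapping matches counted, beside the CCAAT box and the TTTGAA element. An E2F form was found in 15 of 38 genes (39.5%), against 2.12% of all genes with a window and 4.01% of the 10046 such genes measured without LDL. The CCAAT box was found in 24 of 38 (63.2%), against 41.1% of all genes and 43.0% of the measured genes, and TTTGAA in 6 of 38 (15.8%), against 20.2% of all genes and 14.4% of the measured ones. Both an E2F form and CCAAT were found in 10 genes, or 26.3%, against 0.91% of all genes. Each stretch below is the 200 bases just before the start, read 5′ to 3′ on the gene's strand, with E2F and CCAAT matches of either strand in capitals. Mcm5 (chr8:75109309-75109508, plus strand) and Mcm6 (chr1:128359706-128359905, minus strand) were the MCM genes with the largest and the smallest difference between genotypes without LDL. Orc1 (chr4:108579254-108579453, plus strand) holds a match and was above background in WT only. Cdc6 (chr11:98907951-98908150, plus strand) and Uhrf1 (chr17:56304113-56304312, plus strand, 1 of its start windows) hold a match and were far lower in L2AKO. The Uhrf1 window was taken because it holds a match. The genes shown were picked, so their matches do not stand for the share over the 38 genes. Rfc3 (chr5:151651209-151651408, minus strand) holds a match and was level, and Tk1 (chr11:117826015-117826214, minus strand) was far lower with no match in this stretch.
Mcm5: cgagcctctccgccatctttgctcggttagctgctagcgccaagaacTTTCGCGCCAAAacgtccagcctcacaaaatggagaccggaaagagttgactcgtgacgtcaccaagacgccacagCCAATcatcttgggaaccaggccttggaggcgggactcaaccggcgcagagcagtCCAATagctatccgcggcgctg
Mcm6: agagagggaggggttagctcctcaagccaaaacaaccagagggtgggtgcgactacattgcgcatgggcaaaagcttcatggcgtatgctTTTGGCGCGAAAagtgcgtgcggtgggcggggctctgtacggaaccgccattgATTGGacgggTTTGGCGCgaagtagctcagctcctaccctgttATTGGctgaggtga
Orc1: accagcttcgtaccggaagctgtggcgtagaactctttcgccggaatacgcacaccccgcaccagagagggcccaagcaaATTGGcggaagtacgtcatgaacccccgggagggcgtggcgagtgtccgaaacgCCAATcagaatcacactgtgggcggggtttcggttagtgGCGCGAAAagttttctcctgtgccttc
Cdc6: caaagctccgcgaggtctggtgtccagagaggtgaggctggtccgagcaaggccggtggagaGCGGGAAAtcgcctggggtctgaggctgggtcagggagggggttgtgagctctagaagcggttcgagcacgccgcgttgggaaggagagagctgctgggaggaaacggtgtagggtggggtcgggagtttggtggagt
Uhrf1: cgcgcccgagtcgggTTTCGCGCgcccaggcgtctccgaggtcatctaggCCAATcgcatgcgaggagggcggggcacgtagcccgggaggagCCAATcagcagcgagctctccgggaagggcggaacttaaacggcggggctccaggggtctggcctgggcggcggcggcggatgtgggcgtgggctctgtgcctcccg
Rfc3: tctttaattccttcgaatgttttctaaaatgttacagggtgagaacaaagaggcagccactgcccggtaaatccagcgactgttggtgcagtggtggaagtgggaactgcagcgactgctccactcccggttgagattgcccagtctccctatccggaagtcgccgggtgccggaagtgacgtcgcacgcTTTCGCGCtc
Tk1: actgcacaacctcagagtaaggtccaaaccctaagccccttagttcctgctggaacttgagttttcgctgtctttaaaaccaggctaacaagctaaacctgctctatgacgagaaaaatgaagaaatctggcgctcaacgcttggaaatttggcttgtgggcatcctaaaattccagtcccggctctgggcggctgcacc
Mcm6 holds 3 E2F matches here and Mcm5 holds 2, and in both genes forward and reverse forms overlap. In this comparison the genes with and without a match had like medians. Of 14 measured genes with a match, 11 were lower in L2AKO without LDL, with a median difference of -1.12. Of 22 without a match, 14 were lower, with a median of -1.06. The 3 measured genes that held a match and were not lower were Gins3, Pole2 and Rfc3. Over the 10046 measured genes with a window, 22.6% of the 403 with an E2F match were lower, against 16.3% of the 9643 without.

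Without LDL, most replication genes were lower in L2AKO than in WT cells. Of 44 measured genes, 31 were at least 1.5-fold lower and 0 were higher, where 16.6% of all 12593 measured genes were lower and 15.2% higher. At 2-fold the count was 25, beside 8.21% of all genes. The median difference was -1.11 over the replication genes and -0.01 over all genes, and 39 of the 44 lay below 0, beside 51.1% of all genes. The difference was largest in Mcm10, at -3.09, and most positive in Pole2, at 0.28. Just past the limit stood Pold2 at -0.68, and just short of it Dut at -0.58, Rrm1 at -0.54 and Rfc2 at -0.42. Apart from Pold2 and Rfc4, each gene counted as lower here was also lower under each other scaling, background correction and filter tried. In RNA of whole cultures, fewer cells in S phase and less of these RNAs per cell cannot be told apart. The 5 proliferation markers moved with this result: 5 of 5 were lower, with a median of -3.26, and their summed signal, as log2, was 6.26 and 6.11 in WT and 3.15 and 3.34 in L2AKO. Mki67, the antigen of cycling cells, was at 3.49, 3.47, 0.13 and 0.71 on the same arrays, and the part of these markers in the result was not tested.

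**Figure D1:**
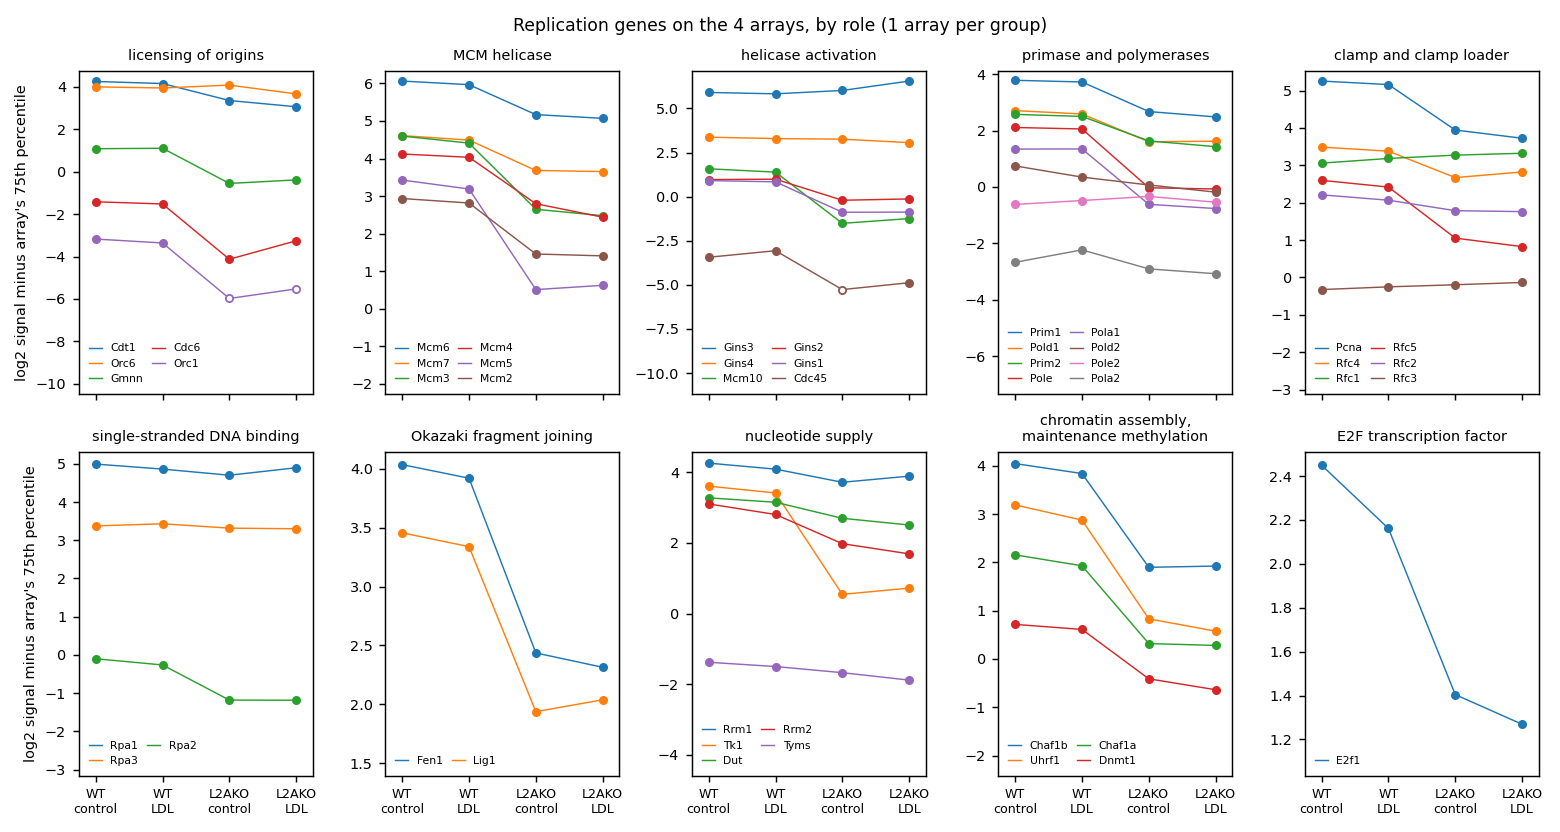
Level of each of the 46 replication genes on the 4 arrays, in 10 panels by role. The vertical axis is the log2 signal minus the array's 75th percentile, the horizontal axis is the group, with 1 array each, and an open circle is a probe not well above background. Most lines are level between the WT arrays and step down to the L2AKO arrays, as for Mcm5 from 3.43 and 3.19 to 0.51 and 0.62.

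Of the genes that license origins, Cdc6, the loader of the MCM ring, was furthest down among those measured. Its brighter probe was at -1.42 and -1.52 in WT and at -4.13 and -3.26 in L2AKO, a 6.54-fold difference without LDL. Both L2AKO arrays lay below both WT arrays, and of the L2AKO arrays the one with LDL was the higher. A second Cdc6 probe, at -1.91, -1.81, -5.00 and -4.07, had the same order but was not above background in L2AKO control. The Cdc6 signals were dim, and the difference was -1.29 after normexp background correction and -1.59 in the authors' value table. Orc1, the ATPase subunit of the origin recognition complex that is made late in G1, was above background only in WT, at -3.18 and -3.36. Its L2AKO level was therefore lower by at least 2.22-fold in control medium and by at least 3.28-fold with LDL. Orc6, another subunit of the same complex, was level at 4.0, 3.94, 4.08 and 3.66. Cdt1, the partner of Cdc6 in loading, differed by -0.90, and Gmnn, which encodes the Cdt1 inhibitor geminin, by -1.64. The loading factor and its inhibitor thus both stood lower in L2AKO.

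Every gene of the MCM ring was lower, 6 of 6, with a median of -1.40. Mcm5 was at 3.43 and 3.19 in WT and at 0.51 and 0.62 in L2AKO. Both L2AKO levels lay far below both WT levels, by 7.56-fold without LDL and 5.93-fold with it. Mcm6 was at 6.06, 5.97, 5.17 and 5.07 on the same arrays, a 1.86-fold difference under either condition. The subunits sit in 1 ring in equal numbers, yet their RNA differences spread from -2.92 for Mcm5 to -0.89 for Mcm6. Mcm3 differed by -1.95, Mcm2 by -1.48, Mcm4 by -1.32 and Mcm7 by -0.93.

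Among the genes that turn the loaded ring into a moving helicase, 3 of 5 measured were lower. Mcm10, which is needed for the helicase to start, was at 1.58 and 1.39 in WT and at -1.51 and -1.24 in L2AKO. That was an 8.53-fold difference without LDL and the largest among the replication genes measured on both arrays. Cdc45, a subunit of the active helicase, was dim at -3.44 and -3.06 in WT, below background in L2AKO control and at -4.88 in L2AKO LDL. It was at least 1.85-fold lower without LDL. With LDL its difference was -1.81, but -0.48 after normexp correction and -0.57 in the authors' value table, both short of the limit. The 4 GINS genes, whose products form a single complex that joins Cdc45 and the ring, differed among themselves. Gins1 differed by -1.80 and Gins2 by -1.17, while Gins4 was at -0.11. Gins3 was at 5.91 and 5.83 in WT and at 6.02 and 6.55 in L2AKO, so it was highest on the L2AKO LDL array.

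In the polymerases that copy the strands, 6 of 8 genes were lower, with a median of -1.02. Pole, the catalytic subunit of the leading strand polymerase epsilon, was at 2.11 and 2.06 in WT and at -0.03 and -0.07 in L2AKO. Both L2AKO arrays lay below both WT arrays, by 4.40-fold without LDL and 4.37-fold with it. A second Pole probe was above background on no array, and taking the mean over both probes put the difference at -1.35. Pole2, the second subunit of the same polymerase, was at -0.62, -0.48, -0.33 and -0.54, with no separation of the genotypes. Pola1, the catalytic subunit of polymerase alpha, which starts each strand with the primase, differed by -1.96, and the primase genes Prim1 and Prim2 by -1.11 and -0.94. Pola2, the non-catalytic subunit, differed by -0.23 without LDL. Pold1, the catalytic subunit of the lagging strand polymerase delta, differed by -1.10, and its partner Pold2 by -0.68. The Pold2 call was just lost after normexp correction, at -0.57.

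PCNA, the sliding clamp, was at 5.26, 5.16, 3.94 and 3.73 for Pcna, a 2.48-fold difference without LDL and 2.71-fold with it. Replication factor C, which opens the clamp and loads it, is a complex of 5 different subunits, and its genes diverged. Rfc5 was at 2.60 and 2.42 in WT and at 1.05 and 0.83 in L2AKO, lower on both L2AKO arrays. Rfc1, the large subunit, was at 3.06, 3.18, 3.27 and 3.32 and so had no lower L2AKO array. Rfc3 differed by 0.13 and Rfc2 by -0.42. Rfc4 was read by 2 probes that disagreed about the limit. The brighter was at 3.49, 3.38, 2.67 and 2.82, a difference of -0.82, and the other at -0.03, -0.02, -0.38 and -0.40, a difference of -0.35. The mean over both Rfc4 probes was -0.58, short of the limit.

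Replication protein A coats single-stranded DNA as a unit of 3 subunits, and 1 of its 3 genes was lower. Rpa2 was at -0.10 and -0.26 in WT and at -1.18 and -1.18 in L2AKO. Rpa3 was level at 3.37, 3.43, 3.32 and 3.30, and the large subunit gene Rpa1 differed by -0.29. The 2 genes that finish the lagging strand moved closely together. Fen1, the nuclease that trims the flap of an Okazaki fragment, was at 4.03, 3.92, 2.44 and 2.31. Lig1, the ligase that seals the nick, was at 3.46, 3.34, 1.94 and 2.04. Their differences without LDL were -1.60 and -1.52.

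Of 5 genes for nucleotide supply, 2 were lower without LDL. Tk1, the cytosolic thymidine kinase of S phase cells, was at 3.61 and 3.42 in WT and at 0.54 and 0.72 in L2AKO. The gap between genotypes was 8.38-fold without LDL and 6.48-fold with it. Tyms, thymidylate synthase, which makes the same nucleotide by the other route, was at -1.38, -1.50, -1.68 and -1.89, a difference of -0.30. Rrm2, the S phase subunit of ribonucleotide reductase, differed by -1.13, while its partner Rrm1 was at -0.54 and Dut, which destroys dUTP, at -0.58.

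The 4 genes that copy chromatin behind the fork were all lower, with the lowest median of any role, -1.99. Uhrf1, which guides the maintenance methyltransferase to freshly copied DNA, was at 3.19 and 2.87 in WT and at 0.83 and 0.58 in L2AKO. A second Uhrf1 probe was above background in WT only. Dnmt1, that methyltransferase, was at 0.72, 0.61, -0.41 and -0.64. Both were lower on both L2AKO arrays, Uhrf1 by 5.13-fold and Dnmt1 by 2.18-fold without LDL. Chaf1b and Chaf1a, the subunits of chromatin assembly factor 1 that place histones on new DNA, differed by -2.15 and -1.84, and a second Chaf1b probe by -2.28. E2f1, one of the E2F factors that switch such genes on, was at 2.45, 2.16, 1.40 and 1.27, a difference of -1.05.

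**Figure D2:**
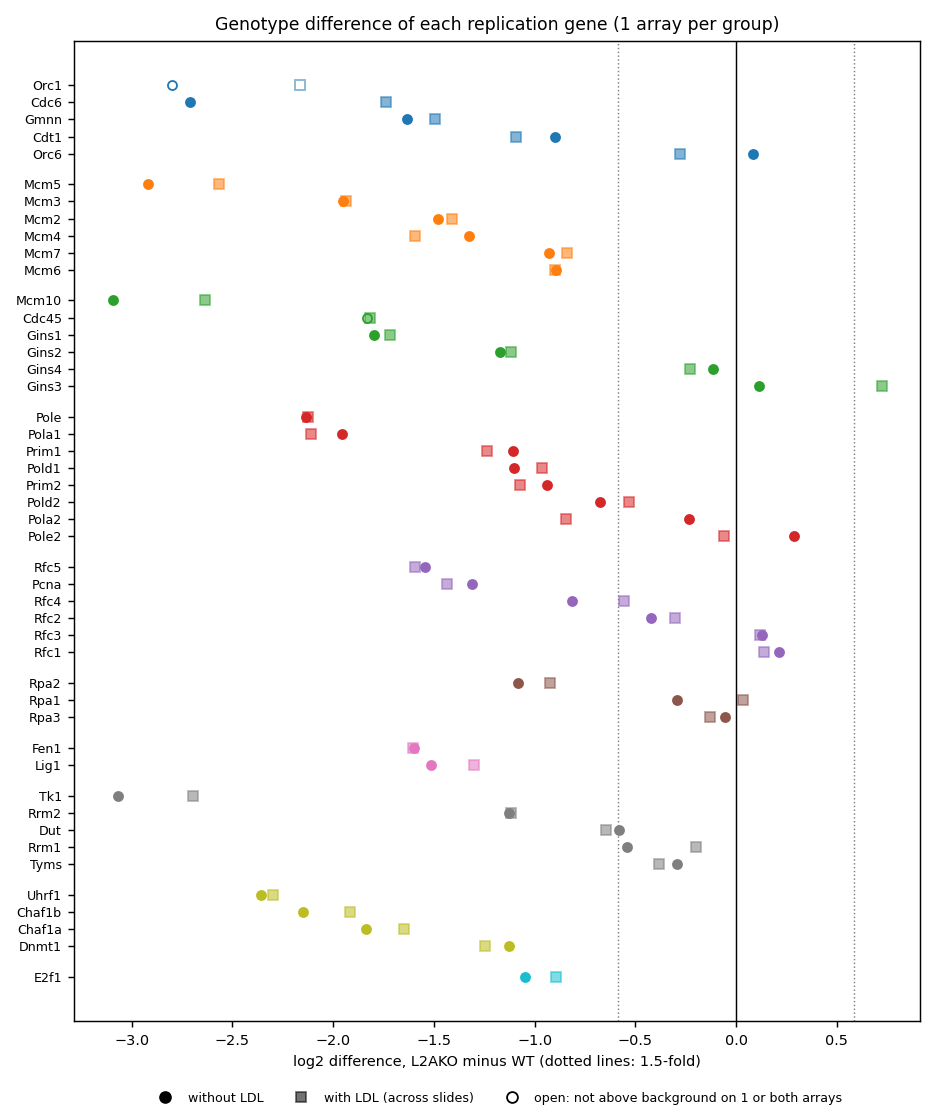
Log2 difference between L2AKO and WT for each replication gene, grouped by role and sorted within a role, without LDL (circles) and with LDL (squares, across slides). Open symbols have a probe not above background on 1 or both arrays, and dotted lines mark 1.5-fold. Most symbols lie left of the lower dotted line, and Gins3 with LDL, at 0.72, is past the upper one.

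Replication genes were also mostly lower in L2AKO when L2AKO LDL was set against WT LDL. Of 45 measured genes, 32 were lower and 1, Gins3, was higher, beside 20.5% and 16.9% of all 12934 measured genes. At 2-fold, 25 were lower, beside 10.4% of all genes. The median was -1.12 over the replication genes and -0.05 over all genes. Scaling the arrays by their median instead turned the split over all genes to 14.7% lower and 23.8% higher, with 31 replication genes lower and 1 higher. By role, the MCM genes were lower for 6 of 6 (median -1.50), the chromatin genes for 4 of 4 (-1.78), licensing genes for 3 of 4 (-1.29) and the primase and polymerase genes for 6 of 8 (-1.02). Helicase activation had 4 of 6 lower, nucleotide supply 3 of 5, and the clamp and its loader 2 of 6. The comparisons without and with LDL share no array. Over the 44 genes measured on all 4 arrays, their differences had a Pearson r of 0.96 and a Spearman rho of 0.98, given as a description over genes of the same 2 cell cultures. All 12491 genes had values of 0.92 and 0.84. Of 31 genes lower without LDL and 31 lower with it, 29 were lower in both, or 93.5% of each list, beside 83.8% and 71.0% of the corresponding lists over all genes. The 2 differences of a gene were within 1.5-fold of each other for 41 of 44 genes, with a median gap of 0.14, beside 11397 of all 12491 genes with a median gap of 0.20.

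A few genes crossed the limit in only 1 of the 2 comparisons. Pola2, at -2.67 and -2.23 in WT and at -2.90 and -3.07 in L2AKO, differed by -0.23 without LDL and -0.84 with it. The WT LDL array stood highest, and the call with LDL was lost after normexp correction, at -0.40, and in the authors' value table, at -0.47. Dut went from -0.58 to -0.64 and so passed the limit by little, and it fell short at -0.45 under median scaling, -0.58 with the 75th percentile over probes above background on all arrays, -0.58 after normexp correction and -0.56 in the authors' value table. Pold2 was at -0.53 with LDL and Rfc4 at -0.56, both now short of the limit. Gins3 went from 0.11 to 0.72, and stayed past the limit with LDL under every setting tried, from 0.63 to 0.92.

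**Figure D3:**
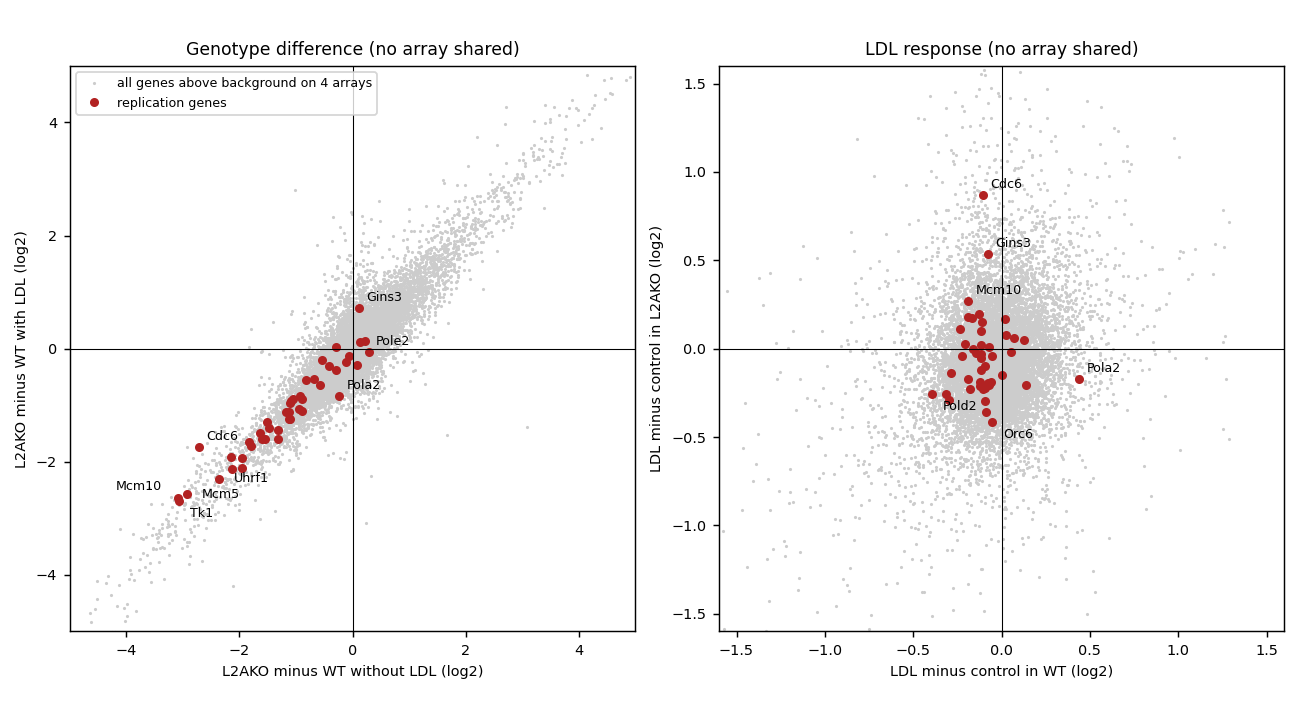
Left, the log2 difference between L2AKO and WT without LDL (horizontal) against that with LDL (vertical). Right, the log2 difference between LDL and control in WT (horizontal) against that in L2AKO (vertical). Grey points are all 12491 genes above background on the 4 arrays, a few of which lie outside the frame, and red points are the 44 replication genes measured there. On the left the red points follow a line from Tk1 and Mcm10 at the lower end to Gins3 at the upper, and on the right they lie in a cloud about 0 with Cdc6 at 0.87 above it.

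Subunits of 1 complex had unlike differences between genotypes. The grouping into complexes, which adds genes of the wider pathway, was made after the values were seen. In the origin recognition complex, Orc2 to Orc6 lay between 0.04 and 0.73 without LDL, while Orc1 was below background in L2AKO. Of Orc2 to Orc6, 2 of 5 were higher without LDL, beside 15.2% of all genes. With LDL these 5 lay between -0.56 and 0.81 and 1 was higher, beside 16.9%. The GINS genes spanned -1.80 to 0.11, polymerase alpha and primase -1.96 to -0.23, and polymerase epsilon -2.14 to 0.28. Replication factor C spanned -1.55 to 0.21, and chromatin assembly factor 1 -2.15 for Chaf1b to -0.14 for Rbbp4, a histone chaperone shared with other complexes. In ribonucleotide reductase the S phase subunit Rrm2 was lower while Rrm2b, the subunit used outside S phase, was at 0.02 without LDL and 0.70 with it.

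**Figure D4:**
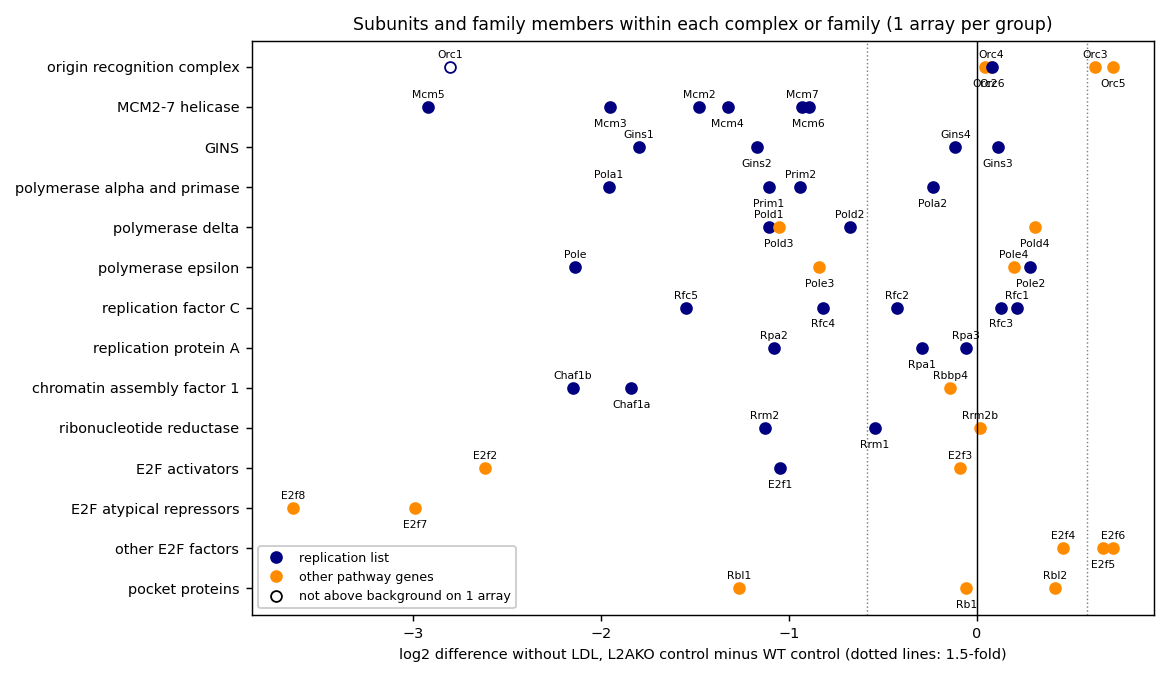
Log2 difference between L2AKO control and WT control for each subunit or family member, 1 row per complex or family. Dark points are the replication genes, orange points other genes of the pathway, the open point is Orc1, not above background in L2AKO, and dotted lines mark 1.5-fold. The MCM row lies wholly left of the lower dotted line, while the rows of the origin recognition complex, GINS, replication factor C and replication protein A reach 0 or come close to it.

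LDL gave little difference in the replication genes of WT cells. Of 46 measured genes, 0 were lower and 0 higher at 1.5-fold, where 2.46% of all 12977 genes were lower and 1.25% higher. The differences ran from -0.40 for Pold2 to 0.44 for Pola2. The median was -0.11 against -0.05 over all genes, and 37 of 46 lay below 0, beside 60.7% of all genes. With the 75th percentile taken over probes above background on all arrays, the split over all genes was 2.14% and 1.67%. In L2AKO cells, 0 of 44 genes were lower and 1 was higher, beside 4.55% and 3.34% of all 13008 genes, and the median was -0.05 against -0.08. Median scaling turned that split to 3.12% lower and 5.10% higher, with Cdc6 and Gins3 past the limit. This comparison crosses slides. The 1 higher gene was Cdc6, at 0.87 for its brighter probe, while its other probe was above background only with LDL. Mki67 was higher on the same arrays, at 0.59, just past the limit, and was singled out after its values were seen. The other proliferation markers were short of the limit, Top2a at 0.37, Cdk1 at 0.26, Birc5 at 0.05 and Ccnb1 at 0.05. The Cdc6 call was lost where normexp correction was used, at 0.25, and in the authors' value table. The LDL responses of the 2 genotypes share no array, and over 44 replication genes they had a Pearson r of 0.03 and a Spearman rho of 0.00, beside 0.34 and 0.15 over all 12491 genes.

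The gap between the LDL responses, L2AKO minus WT, passed 1.5-fold for 3 of 44 genes. Cdc6, at 0.97, and Gins3, at 0.61, were higher and Pola2, at -0.61, was lower, beside 4.77% and 3.99% of all 12491 genes. With 44 genes, counts of 2 and 1 are close to those shares, and median scaling turned them to 7.13% higher and 2.40% lower.

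**Figure D5:**
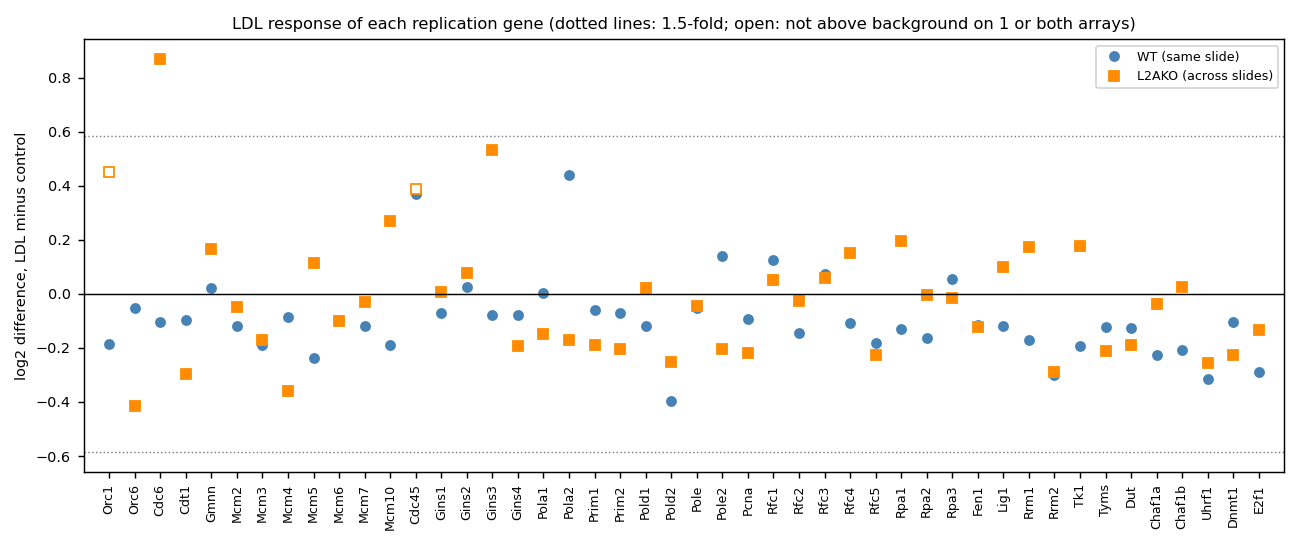
Log2 difference between LDL and control for each replication gene, in WT (circles, 1 slide) and in L2AKO (squares, across slides). Dotted lines mark 1.5-fold and open squares a probe not above background on 1 or both arrays. Of the filled symbols only Cdc6 in L2AKO, at 0.87, is past a dotted line.

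The other genes of the pathway were taken from a list of 106 by function. Their counts are to be read against the shares over all genes, 16.6% lower and 15.2% higher without LDL and 20.5% and 16.9% with it. Of 97 measured without LDL, 43 were lower and 5 higher, with a median of -0.43, and with LDL 50 of 101 were lower and 5 higher, with a median of -0.58. Between LDL and control, 0 of 101 passed the limit in WT, where 2.46% of all genes were lower and 1.25% higher, and 3 of 98 were lower and 3 higher in L2AKO, beside 4.55% and 3.34%. Among other replication factors 13 of 28 were lower and 3 higher. Ticrr, which helps load Cdc45, was lowest at -2.49, followed by the helicase gene Recql4 at -2.45. Highest was Mcm9, an MCM relative outside the ring, at 1.03. Mcm9 was dim in WT control, at -3.92, where the lowest level well above background was -4.23, so the size of its difference is uncertain. Nucleotide supply had 4 of 11 lower and 0 higher, with Dctpp1, a nucleotide pyrophosphatase, at -0.97 and the mitochondrial thymidine kinase gene Tk2 highest at 0.37. Tk1 and Tk2, the cytosolic and mitochondrial kinases, thus lay on opposite sides of 0. Chromatin assembly had 4 of 10 lower and 0 higher, with the histone chaperone gene Asf1b at -3.26, Hat1, a histone acetyltransferase, at -1.01 and Dnmt3a, a de novo methyltransferase, highest at 0.56.

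The genes that admit a cell to S phase were measured beside them. Of 10 regulators of G1 and S phase, 6 were lower and 0 higher. The 10 measured were cyclins, kinases and a phosphatase, with Skp2 and Fbxo5, which act in protein degradation and were lower at -0.70 and -1.90. Without LDL the measured kinase genes Cdk2 and Cdk4, at -0.58 and -0.42, were short of the limit. Ccna2, the S phase cyclin A2, was at 2.30 and 2.14 in WT and at -0.97 and -0.78 in L2AKO, a difference of -3.27 without LDL. Ccnd1, the G1 cyclin D1 that answers growth factors, was at 6.83, 6.70, 4.50 and 4.07, a difference of -2.33, and the difference was least negative for Ccnd3 at -0.21. In the Rb and E2F list 7 of 17 were lower and 2 higher. The activator gene E2f2 differed by -2.62 and E2f3 by -0.09, beside -1.05 for E2f1. The repressors E2f7 and E2f8, which are themselves made in S phase, differed by -2.99 and -3.64. E2f8 was dim in L2AKO control, at -3.71, where the lowest level well above background was -4.33. E2f4 and E2f5, which act with the pocket proteins in resting cells, were at 0.46 and 0.67, and the repressor gene E2f6 at 0.72. Their dimerization partners Tfdp1 and Tfdp2 were at -0.29 and -0.02. Over other scalings and corrections the list kept 7 lower genes, with 1 to 3 higher. Among the pocket protein genes, Rb1 was at -0.06, Rbl1 at -1.26 and Rbl2, the pocket protein of resting cells, at 0.42.

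The Cdk inhibitors, which hold cells out of S phase, were measured for 6 of 7 genes. Of these, 2 were lower and 0 higher, counts close to the shares over all genes for so few genes, with a median of -0.02 that ran from -0.08 to 0.07 over the other scalings and corrections. Cdkn1a, which encodes p21, was at 4.73, 4.55, 3.76 and 3.62 and so was lower on both L2AKO arrays, with a difference of -0.97 without LDL. Cdkn2d differed by -1.17, Cdkn2c by -0.14, Cdkn2a by 0.10, Cdkn1b, which encodes p27, by 0.29 and Cdkn2b by 0.46. Cdkn1c, which encodes p57, was at 1.38 and 1.36 in WT and below background in L2AKO control, at least 49.9-fold lower. That bound rests on its own dim reading of -4.26 and was not computed under other background corrections. With LDL Cdkn1c was at -3.45 in L2AKO, a difference of -4.82. In the checkpoint and fork repair list 7 of 15 were lower and 0 higher, with the nuclease gene Exo1 at -3.12. Atr, the kinase that senses stalled forks, was highest of that list and level, at 2.48 in both control arrays.

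Markers of other cell types the cultures could hold were read on the same arrays. Their counts are for L2AKO against WT without LDL, where 16.6% of all genes were lower and 15.2% higher. The log2 of the summed signal of the smooth muscle list was 7.74 and 7.56 in WT and 7.32 and 7.25 in L2AKO, and 3 of its 6 measured genes were lower and 2 higher. The fibroblast list was at 9.0, 8.79, 8.56 and 8.54, with 3 of 7 lower and 3 higher. The endothelial list was at 2.52, 2.20, 2.18 and 2.47 with Cdh5, Tek, Emcn and Tie1 above background on no array, and the macrophage list at 4.94, 4.76, 4.95 and 5.60 with Adgre1 and Ptprc on none. Of 4 macrophage genes measured without LDL, 2 were higher in L2AKO and 0 lower, Trem2 by 10.5-fold and Cd68 by 3.61-fold. Itgam, the brightest in the macrophage sum at 4.82 in WT control, differed by -0.16. Trem2 was dim in WT control, at -3.79, where the lowest level well above background was -4.23, so its fold is uncertain. The sum of the mesothelial and epithelial list was at 5.90, 5.75, 4.21 and 4.41, but its genes did not move together, with 3 of 5 lower and 2 higher. Krt19, Msln and Cdh1 differed by -1.62, -2.31 and -3.14, and Upk3b and Lrrn4 by 1.17 and 3.40. Krt19 and Msln, at 4.88 and 4.74 in WT control, were the brightest in the sum. The part of these lists in the replication gene differences was not tested.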

How the data were processed

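The deposited scanner files give each spot's linear intensity after background subtraction. Per the file headers, the software was Feature Extraction 10.7.3.1 and the build mm9. The value table deposited by the authors is a linear intensity too. RMA and oligo are named in the submitters' processing notes without a version, and how that table was scaled is unknown. Control spots and outlier spots were left out, the log2 values of repeated spots were averaged, and the 75th percentile of each array was subtracted. Probes were named through RefSeq accessions in a table of GRCm38.p6, which is not the files' build, so gene coordinates are given only for that table's start windows. Of 55679 probes, 28330 matched 1 gene, 27349 matched none and 0 matched several. A gene was read by its probe with the highest mean. A gene below background on 1 side has only a bound, its bright level over the higher of its own dim level and the lowest level well above background on the dim array.

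With 1 array per group no test was run, and counts are set beside the same counts over all genes. Members and lists were chosen with earlier results of these data known. The text names every replication gene, with values on all arrays for the extremes of each role and for probes that disagree, the 2 lowest and 1 highest of each pathway list, and all E2F, pocket protein and Cdk inhibitor genes measured. Some genes this rule takes are not reported here. Further genes (Mki67, Acta2, Tagln, Rbbp4, Rrm2b, Tfdp1, Tfdp2, Skp2, Fbxo5, Cdk2, Cdk4, Trem2, Cd68) were named after their values were seen. So were the markers Top2a, Cdk1, Birc5, Ccnb1, Dcn, Serpinf1, Pi16, Itgam, Msln, Cdh1, Krt19, Upk3b and Lrrn4. Alternatives were 3 other scalings, normexp with an offset of 50 and quantile normalization, the authors' table, 3 other filters on dim probes, the mean over probes and a limit of 2-fold. The steps were tested on simulated data. Computation used Python 3.11.15, numpy 2.4.6, pandas 2.3.3, scipy 1.17.1, matplotlib 3.10.9, R 4.3.3 and limma 3.58.1.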

Additional observations from a re-analysis of the deposited data

Results flagged for a closer look

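For 11 replication genes the single WT response to LDL and the single L2AKO response lay on opposite sides of 0, each by more than the SD of 0.076 between repeated spots. The difference was not tested, since each response is 1 array minus another and the L2AKO response crosses slides. The same count over all genes was not taken, so 11 is not a result about these genes. The scanner's own error for a difference was larger than this SD, at 0.204 for Lig1 between the control arrays. Over all settings the WT response ran from -0.11 to -0.03 for Rfc4 and from -0.12 to -0.06 for Lig1. It ran from -0.12 to -0.001 for Cdc6, from -0.08 to 0.05 for Gins3 and from -0.13 to -0.01 for Rpa1. The L2AKO response of Pola2 ran from -0.17 to -0.07. The flags of these genes thus depend on the setting. L2AKO minus WT, the gap was 0.97 for Cdc6, 0.61 for Gins3, 0.46 for Mcm10, 0.37 for Tk1, 0.35 for Mcm5, 0.34 for Rrm1, 0.33 for Rpa1, 0.26 for Rfc4 and 0.22 for Lig1, where WT was below 0 and L2AKO above. It was -0.61 for Pola2 and -0.34 for Pole2, where WT was above 0 and L2AKO below. For Lig1, with the smallest gap, the responses were -0.12 in WT and 0.10 in L2AKO.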

How the results depend on the processing

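The lower level of the replication genes in L2AKO kept its direction under every alternative tried. At 1.5-fold, 30 to 33 genes were lower without LDL, beside 13.2% to 19.6% of all genes. With LDL 29 to 33 were lower, beside 14.7% to 38.4%, the highest share being without a filter on dim probes. Of 608 values of single called genes under alternatives, 432 moved by less than the repeated-spot SD, 176 by more and 0 reversed. The median without LDL was -1.02 under median scaling, -0.99 with normexp and -1.01 from the table of the authors. The median with LDL was -0.92, -0.99 and -1.03 under the same settings. Median scaling moved the median of all genes with LDL from -0.05 to 0.15, and with it every difference by the same amount. At 2-fold, 0 genes were higher with LDL, beside 8.30% of all genes. For LDL in L2AKO, the median was 0.060 under median scaling and 0.049 with the 75th percentile over probes above background on all arrays, so its sign is not settled. Higher genes there numbered 2 under both of these scalings (Cdc6 and Gins3) and 0 at 2-fold, after normexp and in the authors' table. For the gap between responses, the median was 0.14 under median scaling. Higher genes numbered 1 under quantile normalization and 0 at 2-fold, after normexp and in the authors' table, and lower genes 0 at 2-fold and under all 3 other scalings, normexp and the authors' table. No paired analysis was possible because each group has 1 array, and no replicate could be left out. Signals near background, as for Cdc6, Cdc45 and Orc1, limit how well the size of a difference is known.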
